A study of Mus musculus with 12 samples.

Results

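Liver RNA of mice fasted for 24 h was compared with liver RNA of fed mice. The comparison took the 3 arrays titled as 24 h and the 3 titled as 0 h, which are 6 of the 12 arrays of a fasting course with 4 groups. All animals were male FVB mice of 6 weeks, sacrificed at the same morning hour. The fed mice ate chow freely, and the other group had its chow removed 24 h before sacrifice. Animals were held in metabolic cages, and an infrared lamp kept them warm from 24 h of fasting onward. No transgene, deletion or drug was involved. Each array held liver RNA pooled from 2 animals and labelled with Cy3, against a Cy5-labelled reference pooled from 6 fed livers. The reference is therefore fed liver itself. A ratio of 0 on the log2 scale means equal normalized signal in both dyes. As the dyes were not swapped, the fed level of a probe need not be 0. Por, for example, was at 1.31 and 0.92 on fed replicates 1 and 2. A value at 24 h is therefore read against the fed arrays. An array is thus 1 pool of 2 livers, so the spread between arrays is not the spread between single mice.

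During fasting the liver turns from storing to supplying fuel. Fatty acids released by adipose tissue are oxidized in mitochondria and peroxisomes under the nuclear receptor PPARA, and part of the product leaves the liver as ketone bodies. Amino acids of muscle are stripped of nitrogen, which enters the urea cycle, while their carbon feeds glucose synthesis. Falling insulin and rising glucagon and glucocorticoids direct these changes, and the synthesis of fatty acids and cholesterol is usually reduced.

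The arrays carried 20280 probes after 1075 control spots and 91 retired spots were left out, and 8457 of them could be tied to 6567 current gene symbols. One probe was reported per gene, the one with the brightest fed signal, which gave 6532 genes. A further probe of the same gene pointed the other way in 708 of the 1466 genes with several probes. Some well-known enzymes of the fasted liver, among them Cpt1a, G6pc and Cps1, are not among these genes and were not analysed here.

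Replicate 3 of 24 h stood apart from the rest. Its sample signal was 3.50 times its local background, against 6.07 and 5.85 on replicates 1 and 2 of 24 h and 7.59 to 10.1 on the fed arrays. Over 13066 probes its log2 ratios correlated with those of replicates 1 and 2 at -0.16 and -0.25, whereas these 2 arrays correlated with each other at 0.77. Fed replicate 3 also differed, with correlations of 0.10 and 0.11 to the other fed arrays, which reached 0.55 between them. The correlations are a description, as all arrays share the reference. The median SD between arrays was 0.15 in the fed group and 0.31 at 24 h, and it was 0.12 between replicates 1 and 2 of 24 h. Spots marked as outliers were left out, so only 75.0% of the tested probes were usable on fed replicate 2 and 85.7% on fed replicate 3, and 2118 of the 6532 genes had fewer than 3 usable fed arrays. The files also hold the day on which each image was quantified. Fed replicate 1 and replicate 3 of 24 h share a day, fed replicates 2 and 3 another, and replicates 1 and 2 of 24 h yet another. Replicate 3 minus fed replicate 1 is therefore the only comparison within a day, and without replicate 3 the day and the fast cannot be told apart. Counts of probes that passed are given with replicate 3 and without it. Single genes and lists are given without it, and only in part with it or with its own value.

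With all 3 arrays per group, 1 of 19818 probes (0.00505%) passed the test, which asks for a 1.4-fold change or more and, in limma, for an adjusted p below 0.05. That probe measured Mt1, a metallothionein, and 597 probes had an unadjusted p under 0.05. Without replicate 3 of 24 h and without the other low-signal array, which belongs to the 12 h group and enters through the shared estimate of the spread, 1774 of 19931 probes passed (8.9%). Of these, 1053 were higher at 24 h (5.28%) and 721 lower (3.62%). This number depended on the arrays kept. It was 7 when replicate 3 of 24 h was the only array left out, 625 and 453 without fed replicate 2 or 3, 441 without replicate 2 of 24 h, and 98 with the day as a random block. Below, "rose" and "fell" mean that a gene passed the test without the 2 low-signal arrays, in which 2 arrays of 24 h stand against up to 3 fed arrays, and log2 changes with their standard errors come from that fit unless stated otherwise.

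Among the reported genes, 466 rose (7.13%) and 233 fell (3.57%). Replicate 3, which this fit did not use, lay on the same side of the fed mean as the change in 187 of these 699 genes. It did so for 92 of the genes that rose and for 95 of those that fell, and in 143 genes it lay on that side of fed replicate 1, quantified on the same day. Across all 6532 genes it took the side of the other 24 h arrays in 35.4%, against 26.8% of the called genes. Every usable 24 h array, replicate 3 included, lay above every usable fed array in 352 genes (5.39%) and below in 462 (7.07%). In 120 of the called genes (17.2%) the arrays were apart in this way, 57 higher and 63 lower. The list counts below are to be read beside the shares of 7.13% that rose and 3.57% that fell. On replicate 3, 57.9% of the reported genes usable there lay below the fed mean.

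**Figure D1:**
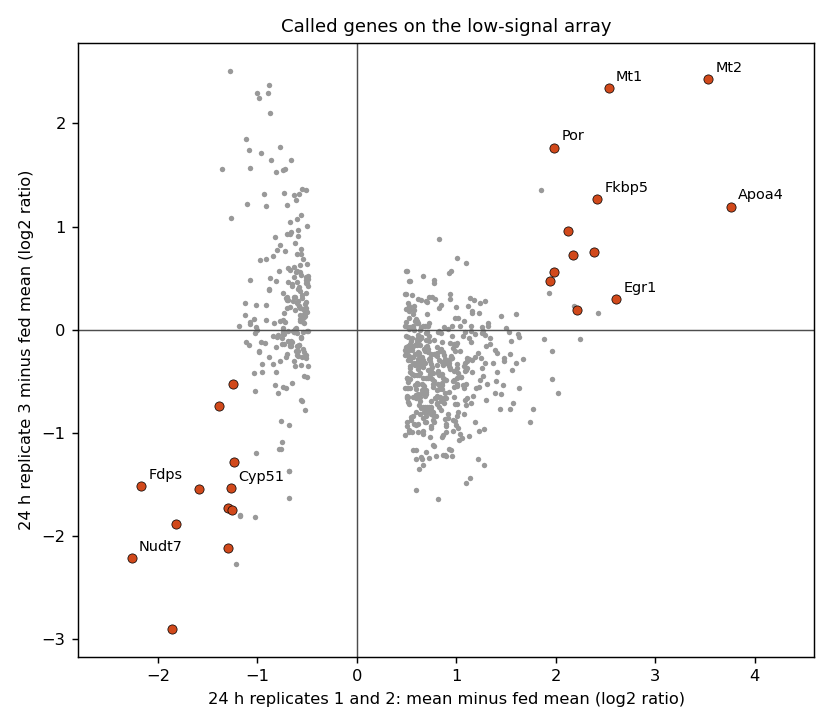
Each point is one of the 699 genes that passed the test without the low-signal arrays. The horizontal axis gives the mean of 24 h replicates 1 and 2 minus the fed mean, the vertical axis replicate 3 minus the fed mean, both as log2 ratios. Grey points are called genes, and orange points are the 24 genes named by rank, which were required to have replicate 3 beyond all fed arrays. Replicate 3 lies on the same side as the other 24 h arrays for 187 genes.

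The genes with the largest changes for which all usable 24 h arrays lay beyond all usable fed arrays were ranked, and 12 increases and 12 decreases were named. The increases were Apoa4, Mt2, Egr1, Mt1, Fkbp5, Lpin1, Ddit4, Got1, Retsat, Por, As3mt and 1810055G02Rik. The decreases were Nudt7, Fdps, Msmo1, Aox3, Slc22a7, Scd1, Fabp5, Akr1c14, Cyp51, H2-Ab1, Kcnk1 and Nsdhl. All 24 probes were well above background on all 6 arrays. Since the choice asked for arrays that do not overlap, that property is no result for these genes. Where it is stated for one of them below, it only describes the values.

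**Figure D2:**
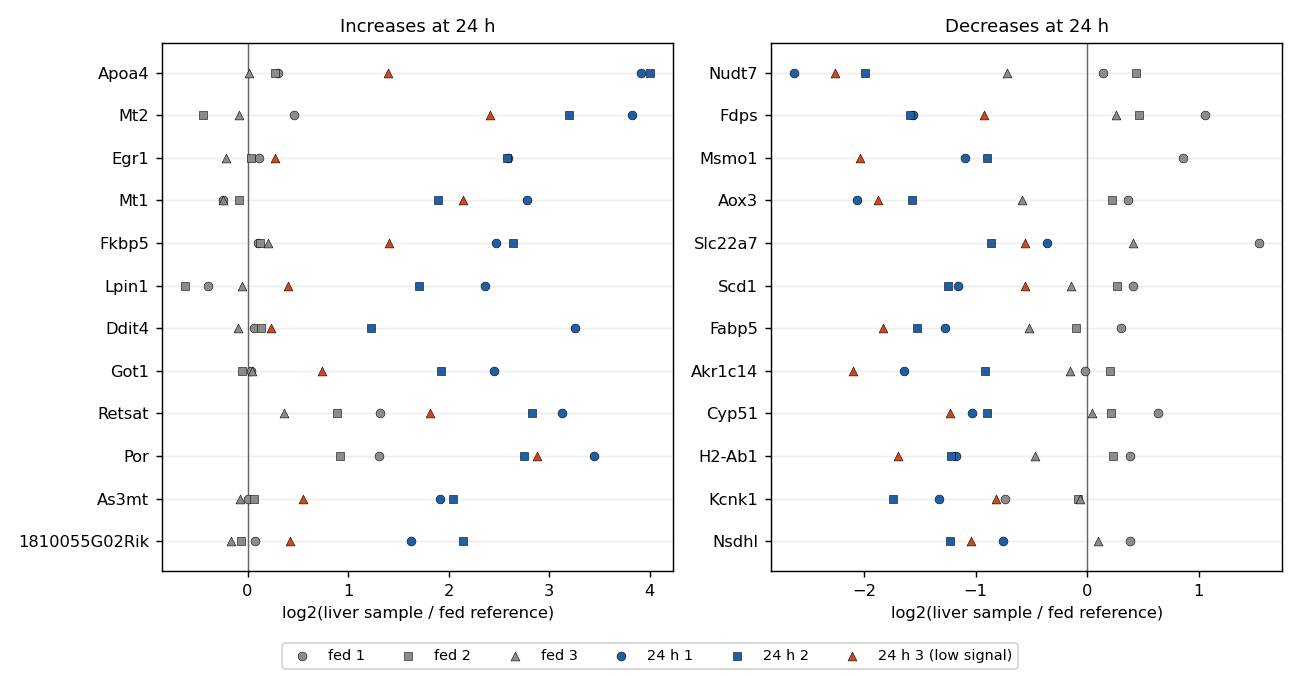
The log2 ratio of liver sample to fed reference on each array is shown for the 12 largest increases (left) and the 12 largest decreases (right). Grey marks are the fed arrays, blue marks replicates 1 and 2 of 24 h, and orange triangles replicate 3 of 24 h. For Egr1, Ddit4 and Lpin1 replicate 3 lies far closer to the fed arrays than replicates 1 and 2 do, whereas for Mt1 it lies between them.

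Metallothioneins bind zinc and copper and are induced in liver by metals and by glucocorticoids. Mt1 was the gene that passed with all arrays. Its log2 ratio was -0.24, -0.09 and -0.25 on fed replicates 1, 2 and 3, and 2.78, 1.90 and 2.15 on the 24 h replicates in the same order. Replicate 3 of 24 h lay between the other 24 h arrays. The log2 change was 2.47 ± 0.22 with all arrays (adjusted p = 0.0107) and 2.53 ± 0.22 without the low-signal arrays (adjusted p = 0.00184), the latter a 5.78-fold increase. Within the shared day, replicate 3 exceeded fed replicate 1 by 2.39. With all arrays, however, Mt1 passed in 8 of 17 alternatives, with adjusted p between 4.14e-06 and 0.441 and a log2 change between 2.21 and 3.33. It lost the call when any 1 of the fed arrays was left out.

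Mt2 showed the same direction. The fed arrays gave log2 ratios of 0.47, -0.45 and -0.09, and the 24 h arrays gave 3.82, 3.20 and 2.41. The lowest 24 h array was thus well above the highest fed array. Mt2 rose 11.6-fold (log2 change 3.53 ± 0.38, adjusted p = 0.00255). With all arrays its adjusted p was 0.168, and it replaced Mt1 as the gene that passed when arrays were normalized by loess (adjusted p = 0.0368).

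As both metallothionein genes rose, the 250 bases before their start sites are shown, as taken from RefSeq on build GRCm38.p6. Capitals mark matches to the core of the metal response element, TGCACNC or TGCGCNC on either strand, where N is any base. Mt1 lies at chr8:94178839-94179088 and Mt2 at chr8:94172368-94172617 for these windows, both on the + strand.
Mt1: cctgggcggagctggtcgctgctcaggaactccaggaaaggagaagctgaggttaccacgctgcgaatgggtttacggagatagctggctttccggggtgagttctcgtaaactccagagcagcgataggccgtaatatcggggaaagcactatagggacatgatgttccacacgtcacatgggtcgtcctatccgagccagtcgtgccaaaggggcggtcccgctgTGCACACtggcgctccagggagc
Mt2: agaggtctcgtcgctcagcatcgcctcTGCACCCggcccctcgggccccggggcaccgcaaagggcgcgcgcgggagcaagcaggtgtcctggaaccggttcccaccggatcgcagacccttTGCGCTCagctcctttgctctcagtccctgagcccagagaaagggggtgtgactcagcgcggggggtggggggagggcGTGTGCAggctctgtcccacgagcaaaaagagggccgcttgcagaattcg
The Mt1 window holds 1 match, 23 bases before the RefSeq start site. The Mt2 window holds 3 matches, which begin 223, 128 and 50 bases before it, the last of them on the opposite strand. Bases after that start site and further upstream were not searched, so these numbers do not count the elements of either promoter. The same letters occur in 7032 of 32851 promoter windows of this length (21.4%), and in 29.6% of the windows of tested genes, so a match is common and is given as a description.

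Apoa4, an apolipoprotein carried on chylomicrons and high-density lipoprotein, showed the largest increase among the ranked genes. Its log2 ratios were 0.31, 0.28 and 0.02 on the fed arrays, and 3.91, 4.01 and 1.39 at 24 h. Replicate 3 was well short of the other 24 h arrays but above all fed arrays. The increase was 13.5-fold (log2 change 3.76 ± 0.34, adjusted p = 0.00184). With all arrays the change was 2.90 ± 0.63 with an adjusted p of 0.854. Apoa4 and Acot1, a cytosolic thioesterase that frees fatty acids from coenzyme A, were the named genes that kept their call in all 16 alternatives to the fit without the low-signal arrays. Acot1 was at -0.01 and 0.07 on its usable fed arrays, replicates 1 and 2, and at 1.71, 2.04 and 1.38 at 24 h. It rose 3.61-fold (1.85 ± 0.15, adjusted p = 0.00184), and its replicate 3 exceeded fed replicate 1 by 1.39.

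When replicate 1 or 2 of 24 h is left out as well as the low-signal arrays, 1 array of 24 h remains. The spread then comes from the other groups alone, so such a fit says little on how well a call holds. Named genes differed in how much they leaned on single arrays. Of the 79 that passed, 33 still passed with each of the 5 arrays left out in turn (Msmo1, counted here, could not be fitted without fed replicate 1), and 23 still passed with the day as a random block. Without fed replicate 1, 12 calls were lost, without fed replicate 2 or 3, 27 and 31, and without replicate 1 or 2 of 24 h, 25 and 37. When replicate 3 of 24 h was the only array left out, 4 of the 79 passed, namely Acot1, Apoa4, Mt1 and Mt2. In that fit the only lists below with a call were the glucocorticoid targets and the further PPARA targets, with 2 increases each. With the sample channel used alone, 4 of the 79 passed.

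Of the genes that answer glucocorticoids, 7 of 15 with a tested probe rose, of 20 listed. All 15 had a positive log2 change in the fit without the low-signal arrays, with a median of 1.11 against 0.02 over all reported genes. The count lay between 5 and 6 without any 1 of the arrays and was 4 with the day as a random block. Of the 7, 6 had replicate 3 on the same side of the fed mean, although 8 of the 15 genes lay below the fed mean on that array and the list's median there was -0.04. The metallothioneins and Pck1 belong to this list.

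Fkbp5, a chaperone that holds back the glucocorticoid receptor and is itself one of its targets, was at 0.10, 0.12 and 0.21 in fed liver. At 24 h it was at 2.47, 2.64 and 1.41, so that all 24 h arrays were high. It rose 5.34-fold (log2 change 2.42 ± 0.24, adjusted p = 0.00255). Ddit4, an inhibitor of the growth kinase complex mTORC1, gave 0.06, 0.13 and -0.10 on the fed arrays and 3.25, 1.23 and 0.23 at 24 h. Its 24 h arrays were widely spread, replicate 3 was close to the fed arrays, and the increase of 2.21 ± 0.60 (adjusted p = 0.0435) was lost without any 1 of the fed arrays or without replicate 1 of 24 h. Klf9, a transcription factor that glucocorticoids induce, was at 0.15, 0.04 and -0.31 in fed liver and at 1.24, 1.47 and -0.54 at 24 h. It rose 2.64-fold (adjusted p = 0.00965) on replicates 1 and 2, its replicate 3 was below every fed array, and the call was lost without replicate 2 of 24 h. Tsc22d3, another standard target, changed by 0.93 ± 0.34 and Cdkn1a, a cell-cycle inhibitor, by 1.70 ± 0.58, neither of which passed (adjusted p = 0.0962 and 0.0860).

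Transcription factors of the fasting response were called in 5 of 21 cases, all higher, with a list median of 0.27. The count was 1 without replicate 2 of 24 h, 2 without fed replicate 2 or 3, 3 without replicate 1 of 24 h, and 0 with the day as a random block. Cebpb, a leucine-zipper factor that acts with the glucocorticoid receptor on gluconeogenic genes, was at -0.13, -0.17 and -0.26 in fed liver and at 1.34, 0.56 and 0.12 at 24 h. The groups did not overlap, and it rose by 1.14 ± 0.25 (adjusted p = 0.0215), a call lost without fed replicate 2 or 3 or replicate 1 of 24 h. Its relative Cebpd, on the glucocorticoid list, rose by 1.24 ± 0.31 (adjusted p = 0.0325) and lost that call without any 1 of the 5 arrays. Foxo1, which insulin keeps out of the nucleus, was at -0.21, -0.0028 and -0.13 in fed liver and at 0.79, 0.53 and 0.34 at 24 h. All 24 h arrays were above the fed arrays, and the increase was 0.77 ± 0.18 (adjusted p = 0.0263), lost without any 1 array other than fed replicate 1. Foxo3 rose by 0.82 ± 0.15 (adjusted p = 0.0144) with replicate 3 at -0.21, below all fed arrays, and lost its call without replicate 2 of 24 h. Cebpa rose by 0.64 ± 0.18 (adjusted p = 0.0464), which was lost without any 1 array.

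Egr1, an immediate-early gene that responds to growth signals within minutes, was at 0.12, 0.04 and -0.21 in fed liver and at 2.59, 2.58 and 0.28 at 24 h. Replicates 1 and 2 were high and nearly equal, while replicate 3 exceeded the highest fed array only slightly. The increase was 6.09-fold (log2 change 2.61 ± 0.46, adjusted p = 0.0128) and was lost without replicate 2 of 24 h. Zfp36, which speeds the decay of messenger RNAs, rose by 1.15 ± 0.22 (adjusted p = 0.0148), a call lost without fed replicate 3, and its replicate 3 lay below the fed mean. Among 13 immediate-early genes tested, these 2 passed, and 1 passed without replicate 2 of 24 h or fed replicate 3.

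Ppara itself did not pass, with a change of 0.97 ± 0.31 (adjusted p = 0.0685). Mitochondrial fatty-acid oxidation had 13 tested genes of 24 listed. All 13 had a positive change in the fit without the low-signal arrays, with a median of 0.63, and 5 of them rose. With replicate 3 included 8 of 13 were positive. On that array alone 11 of 13 were below the fed mean (median -0.39), beside 57.9% of all reported genes usable there. The count was 3 without fed replicate 3 or replicate 2 of 24 h and 2 with the day as a random block.

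**Figure D3:**
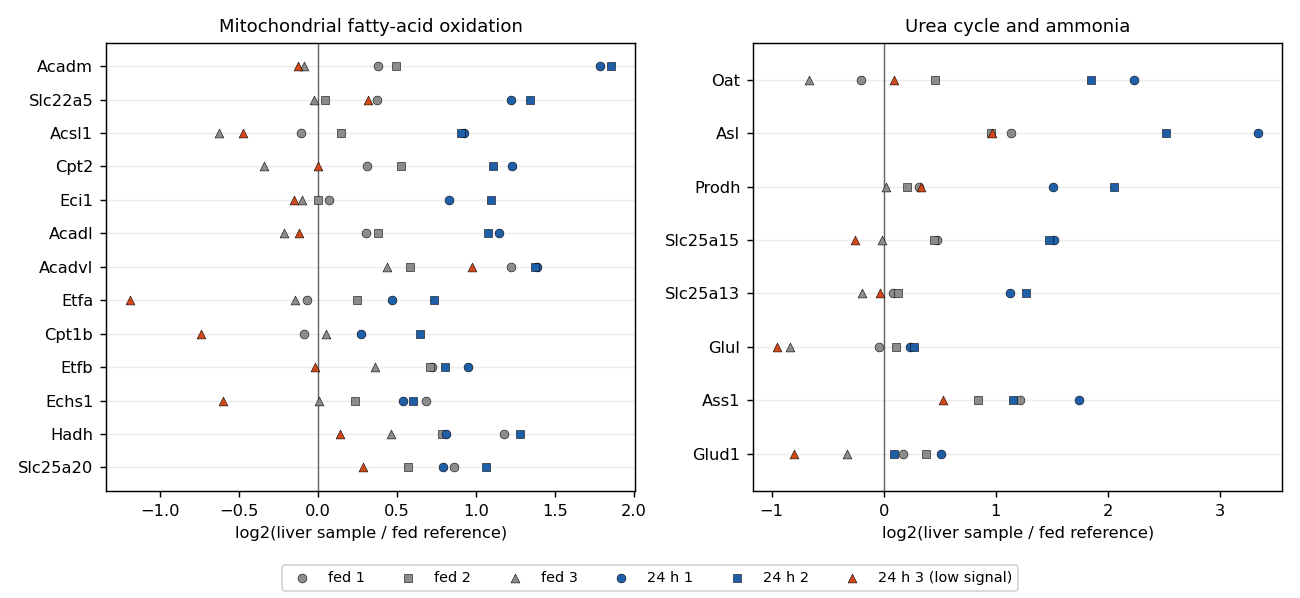
The log2 ratio of liver sample to fed reference on each array is shown for the 13 tested genes of mitochondrial fatty-acid oxidation (left) and the 8 of the urea cycle and ammonia handling (right). Grey marks are fed arrays, blue marks replicates 1 and 2 of 24 h, orange triangles replicate 3 of 24 h. For Acadm and Asl the blue marks lie above all fed arrays and the orange triangle among or below them.

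Acadm, the medium-chain acyl-CoA dehydrogenase, was at 0.38, 0.49 and -0.09 in fed liver and at 1.79, 1.86 and -0.13 at 24 h. Replicates 1 and 2 were high, and replicate 3 lay below every fed array. Without the low-signal arrays the increase was 2.95-fold (log2 change 1.56 ± 0.21, adjusted p = 0.00591), and with all arrays the change was 0.91 ± 0.69. Slc22a5, which carries carnitine into the cell, was at 0.37, 0.04 and -0.03 in fed liver and at 1.22, 1.34 and 0.31 at 24 h. It rose 2.23-fold (1.15 ± 0.13, adjusted p = 0.00286), with replicate 3 inside the fed range. Acsl1, the acyl-CoA synthetase that activates long-chain fatty acids, rose by 1.11 ± 0.24 (adjusted p = 0.0229), a call lost without fed replicate 3 or either remaining 24 h array. Eci1, an isomerase needed for unsaturated chains, rose by 0.98 ± 0.15 (adjusted p = 0.00721). Acadl, the long-chain dehydrogenase, rose by 0.96 ± 0.27 (adjusted p = 0.0475), which was lost without any 1 array. Cpt2, which releases acyl-CoA inside the mitochondrion, changed by 1.00 ± 0.31 (adjusted p = 0.0601), Acadvl, the very-long-chain dehydrogenase, by 0.63 ± 0.26 (adjusted p = 0.128), and Hadh by 0.24 ± 0.31 (adjusted p = 0.632), none of which passed.

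In peroxisomes, where very long chains are shortened, 2 of 9 tested genes rose and the median change was 0.54. Ehhadh, a bifunctional enzyme of the pathway, was at 0.19, 0.46 and -0.34 in fed liver and at 1.45, 2.02 and 0.03 at 24 h. It rose 3.10-fold (1.63 ± 0.30, adjusted p = 0.0141), which was lost without replicate 2 of 24 h. Nudt7, a peroxisomal hydrolase that breaks down coenzyme A, went the other way and showed the largest decrease among the ranked genes. It was at 0.15, 0.44 and -0.72 in fed liver and at -2.63, -1.99 and -2.26 at 24 h, low on every 24 h array. It fell by 2.26 ± 0.30 on the log2 scale (adjusted p = 0.00591), and replicate 3 minus fed replicate 1 was -2.41.

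Of 14 further genes counted as PPARA targets, 3 rose and 1 fell, with a median of 0.62. The list kept a positive median of 0.38 on replicate 3. Beside Apoa4 and Acot1, Lpin1 rose, a phosphatidate phosphatase that also acts as a coactivator of PPARA. It was at -0.39, -0.62 and -0.05 in fed liver and at 2.36, 1.71 and 0.40 at 24 h. All 24 h arrays were higher, and the increase was 5.24-fold (log2 change 2.39 ± 0.39, adjusted p = 0.00965). Cd36, a fatty-acid transporter, fell by 0.63 ± 0.13 on the log2 scale (adjusted p = 0.0203), from -0.03, 0.04 and -0.07 in fed liver to -0.72 and -0.59 on replicates 1 and 2, while replicate 3 stood at 1.28. Replicate 3 was the highest of the 6 arrays, and the call was lost without any 1 array other than fed replicate 1. Plin2, a coat protein of lipid droplets, changed by 0.96 ± 0.29 and did not pass (adjusted p = 0.0598).

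None of the 4 tested genes of ketone-body synthesis and export passed in limma, and the median change was 0.25. Acat1, which makes acetoacetyl-CoA, changed by 0.44 ± 0.32 (unadjusted p = 0.195). At an unadjusted p under 0.05 the number was 0 as well.

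Cholesterol synthesis and uptake was the list with the most decreases. Of 21 tested genes, 9 fell and 1 rose, with a median change of -0.33. On replicate 3, 17 of the 21 genes lay below the fed mean (median -0.76), but so did 57.9% of all reported genes usable there, and 34 of the 44 lists had a negative median on that array. All usable 24 h arrays were below all usable fed arrays in 7 of the 21 genes and above them in none. Replicate 3 took the side of the change in 9 of the 10 called genes, and in 8 of these 9 it also lay on that side of fed replicate 1. The number that fell was 5 without fed replicate 2 or either remaining 24 h array, 6 without fed replicate 3, 7 without fed replicate 1, and 3 with the day as a random block.

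**Figure D4:**
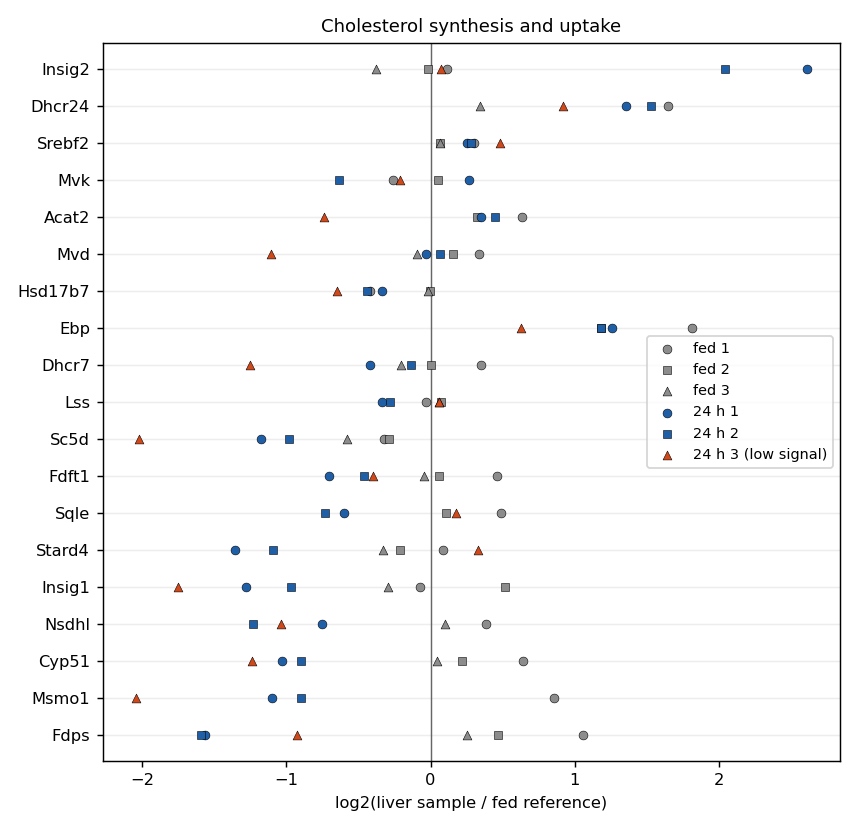
The log2 ratio of liver sample to fed reference on each array is shown for 19 of the 21 tested genes of cholesterol synthesis and uptake, ordered by their log2 change. Grey marks are fed arrays, blue marks replicates 1 and 2 of 24 h, orange triangles replicate 3 of 24 h. Insig2 stands alone at the top, and from Fdps up to Sc5d most 24 h marks lie left of the fed marks, with replicate 3 of Sqle and Stard4 among the exceptions.

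Fdps, farnesyl diphosphate synthase, makes the precursor of squalene. It was at 1.05, 0.47 and 0.26 in fed liver and at -1.56, -1.59 and -0.92 at 24 h. Every 24 h array was low, and Fdps fell by 2.17 ± 0.26 on the log2 scale (adjusted p = 0.00353), to 0.22 of the fed level. With all arrays it fell by 1.95 ± 0.29 (adjusted p = 0.168), and replicate 3 minus fed replicate 1 was -1.98. Cyp51, which removes a methyl group from lanosterol, was at 0.64, 0.22 and 0.04 in fed liver and at -1.03, -0.90 and -1.23 at 24 h. Its 24 h arrays lay close together, and it fell by 1.26 ± 0.17 (adjusted p = 0.00496). Nsdhl, an enzyme of the following steps, was at 0.38 and 0.10 on its usable fed arrays, replicates 1 and 3, and at -0.75, -1.23 and -1.04 at 24 h. It fell by 1.23 ± 0.18 (adjusted p = 0.00892). Msmo1, the methylsterol oxidase, fell by 1.86 ± 0.27 (adjusted p = 0.0122), but its only usable fed value was 0.86 on replicate 1, against -1.10, -0.90 and -2.04 at 24 h.

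Sqle, the squalene epoxidase and a controlled step of the pathway, was at 0.49 and 0.11 on fed replicates 1 and 2 and at -0.60, -0.73 and 0.18 at 24 h. It fell by 0.96 ± 0.15 (adjusted p = 0.00942) on replicates 1 and 2, with replicate 3 between the fed arrays. Fdft1, squalene synthase, fell by 0.74 ± 0.18 (adjusted p = 0.0337), and Sc5d, a late desaturase, by 0.68 ± 0.18 (adjusted p = 0.0360). Both were apart on all arrays, but Fdft1 lost its call without any 1 array other than fed replicate 1, and Sc5d without any 1 array. Srebf2, the transcription factor of the pathway, changed by 0.12 ± 0.12 and did not pass (adjusted p = 0.519), with another probe of the gene pointing the other way.

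Insig1 and Insig2 retain the sterol-sensing complex in the endoplasmic reticulum, and they moved in opposite directions. Insig1 was at -0.08, 0.52 and -0.30 in fed liver and at -1.28, -0.97 and -1.75 at 24 h, low on all 24 h arrays. It fell by 1.17 ± 0.25 (adjusted p = 0.0207), which was lost without fed replicate 2 or either remaining 24 h array. Insig2 was at 0.11, -0.02 and -0.38 in fed liver and at 2.61 and 2.04 on replicates 1 and 2 of 24 h. Replicate 3 stood at 0.07, inside the fed range. Without the low-signal arrays Insig2 rose 5.35-fold (log2 change 2.42 ± 0.31, adjusted p = 0.00414). Stard4, a sterol carrier, fell by 1.07 ± 0.23 (adjusted p = 0.0224), with replicate 3 above every fed array at 0.33, and lost its call without any 1 array other than fed replicate 1. The sterol regulatory element was searched as TCACNCCAC on both strands, and 0 of 18 promoter windows of 14 cholesterol genes held these letters, against 1.05% of all windows. At that share 18 windows of any genes would usually hold no match, so the search cannot tell these genes from others. Variants of these letters were not searched.

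Of 17 tested genes of fatty-acid and triglyceride synthesis, 1 rose and 1 fell, beside 7.13% and 3.57% of all reported genes, and the median was 0.04. Without replicate 1 of 24 h, 2 were higher and 3 lower. Scd1, the desaturase that makes oleate, was at 0.41, 0.27 and -0.15 in fed liver and at -1.16, -1.25 and -0.56 at 24 h. It was low on all 24 h arrays and fell by 1.38 ± 0.20 (adjusted p = 0.00638). Agpat3, an acyltransferase of phospholipid and triglyceride synthesis, rose by 1.53 ± 0.26 (adjusted p = 0.0115), with replicate 3 inside the fed range, and lost its call without replicate 2 of 24 h. Fasn, the fatty-acid synthase, changed by -0.14 ± 0.12 (adjusted p = 0.446), with another probe of the gene pointing the other way. Acly, which supplies acetyl-CoA to Fasn, changed by -0.29 ± 0.24 (adjusted p = 0.429), and Me1, which supplies NADPH, by -0.11 ± 0.11 (adjusted p = 0.529). For all 3, replicate 3 was the lowest of the 6 arrays, at -0.59, -1.22 and -0.53. Fads2, a desaturase of polyunsaturated chains, changed by 0.82 ± 0.23 and did not pass (adjusted p = 0.0521).

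The urea cycle and ammonia handling showed the highest list median, 1.19 over 8 tested genes of 14 listed, and all 8 had a positive change. Of these, 5 rose and none fell. The count was 4 without any 1 of the arrays other than fed replicate 1, and 2 with the day as a random block. On replicate 3, 6 of the 8 genes lay below the fed mean (median -0.29), beside 57.9% of all reported genes usable there.

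Asl, argininosuccinate lyase, was at 1.14 and 0.96 on fed replicates 1 and 2, its usable fed arrays, and at 3.34, 2.52 and 0.96 at 24 h. Replicates 1 and 2 were high and replicate 3 was level with the fed arrays. The increase without the low-signal arrays was 3.69-fold (log2 change 1.88 ± 0.27, adjusted p = 0.0116), lost without fed replicate 2. Oat, ornithine aminotransferase, links ornithine to glutamate and proline. It was at -0.20, 0.46 and -0.67 in fed liver and at 2.24, 1.85 and 0.09 at 24 h, and it rose 4.53-fold (2.18 ± 0.33, adjusted p = 0.00758). Prodh, proline dehydrogenase, was at 0.32, 0.21 and 0.02 in fed liver and at 1.51, 2.06 and 0.34 at 24 h. Replicate 3 exceeded the highest fed array by a margin smaller than the spread of the fed arrays, and Prodh rose 3.04-fold (1.60 ± 0.18, adjusted p = 0.00286).

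Slc25a15 and Slc25a13 carry ornithine and aspartate across the mitochondrial membrane for the urea cycle. Slc25a15 rose by 1.20 ± 0.25 (adjusted p = 0.0209) and lost its call without fed replicate 3 or either remaining 24 h array. Slc25a13 rose by 1.19 ± 0.16 (adjusted p = 0.00474). Ass1, argininosuccinate synthase, changed by 0.42 ± 0.26 (adjusted p = 0.290), Glud1, glutamate dehydrogenase, by 0.23 ± 0.30 (adjusted p = 0.633), and Glul, glutamine synthetase, by 0.51 ± 0.30 (adjusted p = 0.269), none of which passed.

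Of 8 solute carriers tested, 3 rose and 1 fell. Slc7a2, a carrier of arginine and other cationic amino acids, was at -0.0042, 0.03 and -0.18 in fed liver and at 1.67, 2.16 and -0.52 at 24 h. Replicate 3 was below every fed array, and without the low-signal arrays Slc7a2 rose 3.91-fold (log2 change 1.97 ± 0.22, adjusted p = 0.00255). Slc38a4, a carrier of neutral amino acids, rose by 1.34 ± 0.21 (adjusted p = 0.00801), and the mitochondrial glutamate carrier Slc25a22 by 1.45 ± 0.17 (adjusted p = 0.00353). For both, replicate 3 was inside the fed range. Slc22a7, an organic-anion transporter, was at 1.54 and 0.41 on fed replicates 1 and 3 and at -0.36, -0.86 and -0.56 at 24 h. It was low on all 24 h arrays and fell by 1.59 ± 0.31 (adjusted p = 0.0180), lost without replicate 2 of 24 h.

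Amino-acid catabolism beyond the urea cycle gave 4 increases among 16 tested genes with a median of 0.07, and 1 without fed replicate 2 or 3 and 0 without replicate 2 of 24 h. Sulphur amino-acid and methyl-group metabolism gave 3 increases among 11 with a median of 0.59. The latter count was 2 without fed replicate 1 or replicate 1 of 24 h, 1 without fed replicate 3 or replicate 2 of 24 h, and 0 without fed replicate 2. Cth, which releases cysteine from cystathionine, rose by 1.44 ± 0.38 (adjusted p = 0.0485) on the single usable value of 1.71 among replicates 1 and 2 of 24 h, against 0.29 and 0.25 on fed replicates 1 and 2, and lost its call without any 1 of the other 4 arrays, while it could not be fitted without replicate 1 of 24 h. Ahcy, which clears S-adenosylhomocysteine, rose by 0.94 ± 0.24 (adjusted p = 0.0401) and lost its call without any 1 array. Cdo1, the cysteine dioxygenase, rose by 0.82 ± 0.15 (adjusted p = 0.0180) and lost its call without fed replicate 2. Mat1a, the liver's S-adenosylmethionine synthetase, changed by 1.56 ± 0.53 and did not pass (adjusted p = 0.0855). All 4 lacked a usable value on fed replicate 3, and replicate 3 of 24 h was level with or below their fed arrays. On replicate 3 of 24 h, 15 of the 16 genes of amino-acid catabolism lay below the fed mean (median -0.41). So did 10 of the 11 of the sulphur list (median -0.47), beside 57.9% of all reported genes usable there.

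Gluconeogenesis gave 4 increases and 1 decrease among 13 tested genes, with a median of 0.44. The number that rose was 2 without fed replicate 3 and 1 with the day as a random block. Pck1, which makes phosphoenolpyruvate, was at 0.31 and 0.30 on fed replicates 1 and 2 and at 1.48, 1.35 and 0.54 at 24 h. All 24 h arrays were higher, and the increase was 2.17-fold (log2 change 1.11 ± 0.14, adjusted p = 0.00557). Got1, the cytosolic aspartate aminotransferase, was at 0.04, -0.05 and 0.04 in fed liver and at 2.45, 1.92 and 0.74 at 24 h. It was high on all 24 h arrays and rose 4.52-fold (2.18 ± 0.45, adjusted p = 0.0198), although the call was lost without any 1 array other than fed replicate 1. Its partners in the malate-aspartate shuttle, Got2 and Mdh1, changed by 0.44 ± 0.24 (adjusted p = 0.242) and 0.21 ± 0.33 (adjusted p = 0.695) and did not pass.

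Slc37a4 carries glucose 6-phosphate into the endoplasmic reticulum for its hydrolysis. It rose 2.50-fold (log2 change 1.32 ± 0.21, adjusted p = 0.0133), with replicate 3 between the fed arrays, and lost its call without fed replicate 3. Aldoa, an aldolase, rose 2.14-fold (1.10 ± 0.18, adjusted p = 0.00942), with replicate 3 below all fed arrays. Gpi1, glucose 6-phosphate isomerase, fell by 0.84 ± 0.20 (adjusted p = 0.0306), with another probe of the gene pointing the other way, and lost its call without fed replicate 2 or 3 or replicate 2 of 24 h. Glycogen and glucose use gave 2 increases among 12 genes, which became 0 without any 1 array other than fed replicate 1.

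**Figure D5:**
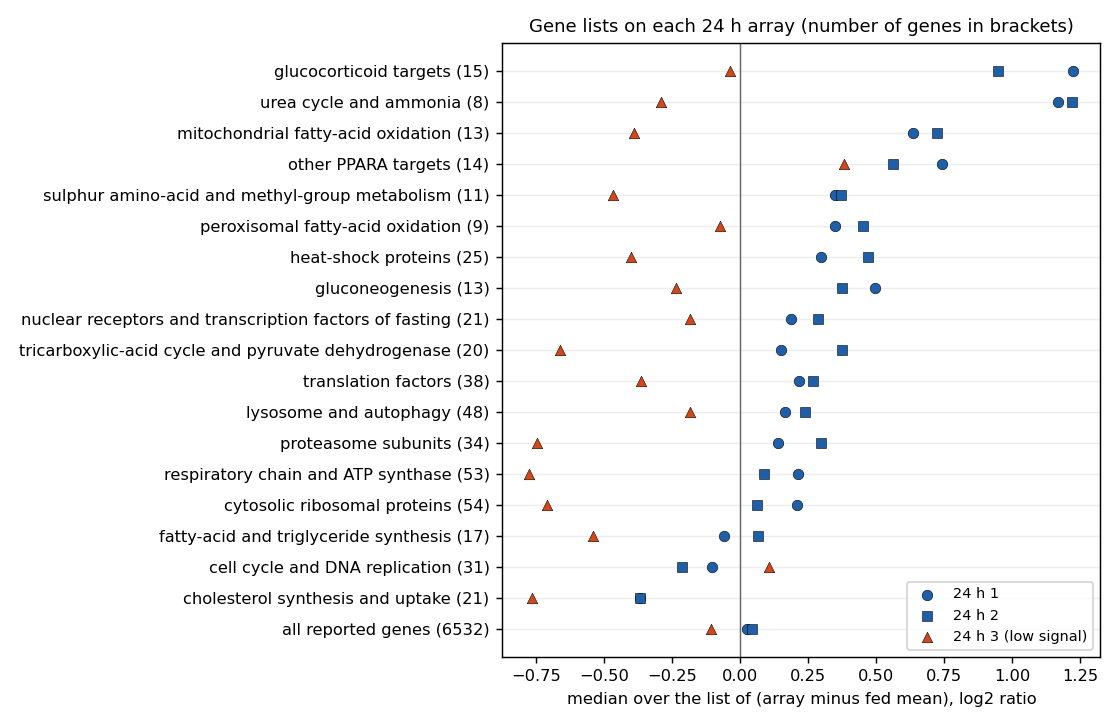
Each mark is the median, over the tested genes of a list, of the log2 ratio on one 24 h array minus the fed mean. Blue marks are replicates 1 and 2, orange triangles replicate 3, and the number of genes stands in brackets. Replicates 1 and 2 differ by at most 0.275 within a list shown, and replicate 3 lies left of both in all lists shown except cell cycle and DNA replication.

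Heat-shock proteins, which fold other proteins, gave 5 increases among 25 tested genes, with a median of 0.45. The count was 3 without fed replicate 1, fed replicate 2 or replicate 1 of 24 h, 1 without fed replicate 3 or replicate 2 of 24 h, and 1 with the day as a random block. On replicate 3, 19 of the 25 genes lay below the fed mean (median -0.40), beside 57.9% of all reported genes usable there. Hsp90aa1 was at 0.05, 0.35 and -0.17 in fed liver and at 1.61, 2.03 and -0.81 at 24 h. Replicates 1 and 2 were high and replicate 3 was the lowest of the 6 arrays. Without the low-signal arrays the increase was 3.35-fold (log2 change 1.74 ± 0.22, adjusted p = 0.00414). The co-chaperone Hsph1 rose 2.83-fold (adjusted p = 0.0165), with its call lost without fed replicate 3 or replicate 2 of 24 h. Hspa8 and Dnaja1 rose by 1.19 and 0.77, but Hspa8 lost its call without any 1 array other than fed replicate 2, and Dnaja1 without fed replicate 2 or 3 or replicate 2 of 24 h.

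The tricarboxylic-acid cycle and pyruvate dehydrogenase gave 5 increases among 20 tested genes, with a median of 0.26. The count was 1 without fed replicate 3 or replicate 2 of 24 h, 2 without fed replicate 2, and 0 with the day as a random block. Dlst, Pdha1, Idh3b and Idh3g, subunits of 3 dehydrogenase complexes of these steps, rose by 1.00, 0.89, 0.72 and 0.60, and each lost its call without fed replicate 3 and without replicate 2 of 24 h. Dlst, Idh3b and Idh3g also lost it without fed replicate 2, and Dlst and Idh3b without replicate 1 of 24 h. With all arrays and the day as a fixed block, Pdha1 and Idh3g instead fell by 1.24 and 1.06. On replicate 3, 16 of the 20 genes of the list lay below the fed mean (median -0.66), beside 57.9% of all reported genes usable there.

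The respiratory chain and ATP synthase gave 4 increases among 53 genes, cytosolic ribosomal proteins 2 increases and 1 decrease among 54, proteasome subunits 1 increase among 34, and translation factors 5 increases among 38. At most 13.2% of a list rose, the share of the translation factors, beside 7.13% of all reported genes. Without replicate 2 of 24 h no increase remained in any of the 4 lists, and translation factors held 0 without fed replicate 2 or 3 and 2 without replicate 1 of 24 h. The respiratory chain held 1 without fed replicate 2, fed replicate 3 or replicate 1 of 24 h, and proteasome subunits held 4 without replicate 1 of 24 h. Replicate 3 was below the fed mean in 49, 47, 29 and 31 genes of these lists, with medians of -0.77, -0.71, -0.74 and -0.36. The medians in the fit without the low-signal arrays were 0.16, 0.14, 0.19 and 0.24. Ubiquitin and conjugating enzymes gave 4 increases and 1 decrease among 23, with 2 increases without fed replicate 2 and 0 without fed replicate 3 or replicate 2 of 24 h. The decrease was Ube2j1, a conjugating enzyme of the endoplasmic reticulum, at -0.39, -0.21 and -0.16 in fed liver and at -1.10, -1.55 and 1.32 at 24 h. Replicates 1 and 2 were low and replicate 3 was the highest of the 6 arrays. Without the low-signal arrays Ube2j1 fell by 1.08 ± 0.16 (adjusted p = 0.00667).

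Lysosome and autophagy genes rose in 7 of 48 cases, beside 7.13% of all reported genes, with a median of 0.20. The count was 2 without replicate 2 of 24 h, 3 without fed replicate 2 or 3, and 0 with the day as a random block. Sqstm1, which delivers ubiquitin-tagged cargo to autophagosomes, was at 0.37, 0.11 and -0.08 in fed liver and at 1.27, 1.56 and -0.19 at 24 h. It rose 2.44-fold (log2 change 1.29 ± 0.19, adjusted p = 0.00721), with replicate 3 below all fed arrays. Gaa, the lysosomal enzyme that degrades glycogen, rose by 1.26 ± 0.23 (adjusted p = 0.0133) and lost its call without replicate 2 of 24 h. Ctsl, a cathepsin, was 5.51-fold higher but varied, and did not pass (adjusted p = 0.0875).

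Genes of the insulin and IGF axis rose in 3 of 15 cases, with a median of 0.27, and the count was 1 without any 1 array other than fed replicate 1. Igfbp2, a binding protein of the insulin-like growth factors, was at 0.85, 0.58 and 0.15 in fed liver and at 2.60, 1.99 and -0.25 at 24 h. It rose 3.42-fold on replicates 1 and 2 (log2 change 1.77 ± 0.36, adjusted p = 0.0183), while replicate 3 was below all fed arrays. That call was lost without fed replicate 2 or 3 or replicate 1 of 24 h.

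Cell-cycle and DNA-replication genes had a negative median of -0.16, with 2 increases and 3 decreases among 31, beside 7.13% and 3.57% of all reported genes. The decreases numbered 6 without replicate 1 of 24 h, 1 without replicate 2 of 24 h or fed replicate 3, and 0 without fed replicate 2, and the increases numbered 0 without fed replicate 3 or replicate 1 of 24 h and 1 without fed replicate 2 or replicate 2 of 24 h. Ccna2, the cyclin of S phase, was at 0.05, 0.03 and 0.07 in fed liver and at -1.59, -0.38 and -0.37 at 24 h. The groups did not overlap, and it fell by 1.03 ± 0.26 (adjusted p = 0.0319), a call that was kept without replicate 2 of 24 h and lost without any other single array. Ccnd3, a cyclin of G1, was at 0.24, 0.27 and -0.06 in fed liver and at 1.11, 0.73 and 0.63 at 24 h. It rose by 0.77 ± 0.16 (adjusted p = 0.0199), which was lost without fed replicate 3 or replicate 1 of 24 h.

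Por, the reductase that feeds electrons to microsomal cytochromes P450, was at 1.31 and 0.92 on fed replicates 1 and 2 and at 3.45, 2.76 and 2.88 at 24 h. All 24 h arrays were high, replicate 3 exceeded fed replicate 1 by 1.57, and the increase was 3.95-fold (log2 change 1.98 ± 0.49, adjusted p = 0.0337), lost without any 1 array. Retsat, which saturates retinol, was at 1.31, 0.89 and 0.37 in fed liver and at 3.13, 2.83 and 1.81 at 24 h. It rose 4.36-fold (2.12 ± 0.39, adjusted p = 0.0137), lost without replicate 2 of 24 h. As3mt, which methylates arsenic, was at 0.01, 0.06 and -0.07 in fed liver and at 1.91, 2.05 and 0.55 at 24 h. Its fed arrays were tight, and it rose 3.95-fold (1.98 ± 0.13, adjusted p = 0.000253). Cyp17a1, a steroid hydroxylase and lyase, rose 2.44-fold (1.29 ± 0.17, adjusted p = 0.00591), and its replicate 3 of 0.17 exceeded both usable fed values, -0.26 and 0.03.

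Aox3, an aldehyde oxidase, was at 0.37, 0.23 and -0.58 in fed liver and at -2.06, -1.57 and -1.87 at 24 h. It fell by 1.82 ± 0.36 (adjusted p = 0.0169), which was lost without fed replicate 2 or either remaining 24 h array. Akr1c14, a hydroxysteroid dehydrogenase, fell by 1.29 ± 0.34 (adjusted p = 0.0387), lost without any 1 array. Fabp5, a fatty-acid binding protein, was at 0.31, -0.10 and -0.52 in fed liver and at -1.28, -1.52 and -1.83 at 24 h. It fell by 1.30 ± 0.22 (adjusted p = 0.0108), lost without replicate 2 of 24 h. Kcnk1, a potassium channel, fell by 1.24 ± 0.23 (adjusted p = 0.0141) with replicate 3 near fed replicate 1 (difference -0.08), and its call was lost without replicate 2 of 24 h. The gene named 1810055G02Rik rose 3.83-fold (1.94 ± 0.22, adjusted p = 0.00286).

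H2-Ab1, an MHC class II chain that antigen-presenting cells carry, was at 0.39, 0.23 and -0.46 in fed liver and at -1.17, -1.23 and -1.69 at 24 h. It was low on all 24 h arrays and fell by 1.25 ± 0.22 (adjusted p = 0.0122), lost without replicate 2 of 24 h. In whole liver, fewer cells of a type and less RNA per cell cannot be told apart. Of 11 macrophage and myeloid markers, 1 fell, Coro1a, and none rose. Their median log2 ratio ranged from -0.06 to 0.13 on the fed arrays and from -0.27 to 0.01 at 24 h. Of 5 lymphocyte markers, 1 fell, Cd2, with medians from -0.08 to 0.19 in fed liver and from -0.03 to 0.21 at 24 h. Every marker of these lists was well above background on at least 1 array, the calls of Coro1a and Cd2 were lost without fed replicate 2 or 3 or replicate 2 of 24 h, and their part in the H2-Ab1 result was not tested.

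None of the 4 endothelial, 3 cholangiocyte, 3 erythroid, 1 pancreatic acinar and 6 adipose and muscle markers passed in limma without the low-signal arrays, where 4 of these 17 had an unadjusted p under 0.05. All 3 cholangiocyte markers had a negative change, with a median of -0.28, and their median log2 ratio was -0.27 and -0.23 on replicates 1 and 2 of 24 h, below the -0.04 to 0.06 of the fed arrays, but 0.18 on replicate 3. The median change was -0.26 for the erythroid and -0.20 for the adipose and muscle markers. Of 8 stellate-cell and fibroblast markers, Dcn rose (lost without replicate 2 of 24 h) and the median change was -0.11. The tissue label was checked with hepatocyte markers, of which 4 were tested, Ttr, Trf, Apoa1 and Ambp. All 4 were well above background on all 6 arrays. Their median log2 ratio ranged from 0.40 to 0.56 on the fed arrays and from 0.12 to 0.24 at 24 h, so these medians did not overlap. By gene, Apoa1 did overlap, with replicate 3 of 24 h at 0.535 against 0.534 on fed replicate 1. All 4 had a negative change, none passed in limma, and 1 had an unadjusted p under 0.05. Another probe of Trf pointed the other way. The part of this shift in the other results was not tested. The probes of Ttr, Trf and Apoa1 were saturated on all fed arrays, and those of Trf and Apoa1 on 2 of the 24 h arrays, so no fold is given for them. The medians of the list rest largely on these saturated probes and are a description only. Ambp changed by -0.64 ± 0.42 and did not pass (adjusted p = 0.324).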

How the data were processed

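Per the file headers and the study's methods, the deposited scanner files hold intensities that Agilent's Feature Extraction software read from the images, as medians over the pixels of a spot and of its surroundings, not normalized. They also hold the software's flags and its log10 ratios, already corrected for background and dye. The deposited value table repeats these log10 ratios with the sign turned (largest difference 4.92e-08) and was not used further. The dyes were not swapped, so a probe's dye effect is shared by both groups.

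Intensities were corrected with normexp (offset 50) and quantile-normalized over the 24 channels, and log2 of sample over reference was taken. Spots flagged as outliers were set to missing. A probe was tested where its sample signal was flagged well above background on all arrays of either group. Tests used lmFit and eBayes of limma 3.58.1 in R 4.3.3, with the 4 groups of the course as the design and Benjamini-Hochberg adjustment over all probes tested. In simulated arrays, 35 of 100 probes changed by 1 on the log2 scale were recovered with all arrays and 78 of 100 without the low-signal arrays. Of the unchanged probes, 2 and 13 were called. The simulated noise was independent between arrays, with no day effect and no deviant array. The simulation therefore cannot show how the fits fare where such effects are present. As the labels give only which livers were pooled, p-values measure the spread between pools.

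Gene names in the files were brought to current symbols through RefSeq tables of GRCm38.p6, by symbol for 4326 probes, by synonym for 4126 and by accession for 5. Members, lists and tests were chosen with earlier results of these data known. Named were listed key genes with a tested probe, the 12 largest increases and decreases with 24 h arrays beyond all fed arrays, and every gene called with all arrays. Eci1, Agpat3, Slc25a13, Slc38a4, Slc25a22, Foxo3, Zfp36, Hsp90aa1, Hsph1, Hspa8, Dnaja1, Pdha1, Idh3g, Gaa, Ctsl, Ube2j1, Ccna2, Ccnd3, Ambp, Coro1a, Cd2, Dcn and the genes under other observations were chosen after their values were seen. Alternatives were other normalizations, background corrections, filters, blocks and call rules, the sample channel alone, array weights, the 2 groups alone, and each array left out. Some genes of these lists are counted but not reported here by name.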

Additional observations from a re-analysis of the deposited data

How the results depend on the processing

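With all arrays, where 1 probe passed in limma, the number was 0 with the scanner software's log ratio (866 probes at an unadjusted p under 0.05), with the sample channel alone (1039), with the day as a random block (3555) and with the 2 groups alone (679). It was 2 with outlier spots kept (Mt1 and Acot1), 2084 with array weights, 2328 with the day as a fixed block and 126 at an unadjusted p under 0.01 with a 1.4-fold change. The array weights were lowest for replicate 3 of 24 h (0.098) and the low-signal array of 12 h (0.036). The fixed block links the groups only through the day shared by fed replicate 1 and replicate 3 of 24 h. Leaving out 1 array gave 0 to 7, with 0 for each fed array and 7 for replicate 3 of 24 h. Without the low-signal arrays, where 1774 passed, the number was 29 with the sample channel alone, 98 with the day as a random block and 7 when replicate 3 of 24 h alone was left out, of which Mt1, Mt2, Apoa4 and Acot1 have a name. Leaving out 1 array gave 441 to 2220. Apart from the replicate block, the other settings and call rules gave 1204 to 2152 probes. The day as a fixed block could not be fitted there.

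With the replicate number as a block, 0 probes passed with all arrays (493 at an unadjusted p under 0.05) and 660 without the low-signal arrays, of which 644 were among the 1774 in the same direction. This replicate block has no basis in the labels, since same-numbered arrays hold different animals, and deviations of same-numbered arrays correlated at 0.15, 0.09 and 0.47. Of the 79 named genes called, 56 kept their call under it.

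Signs turned for called values with all arrays only. Cd36 was at -0.67 with array weights, and with the day as a fixed block Dnaja1 was at -1.30, Pdha1 at -1.24, Idh3g at -1.06 and Ube2j1 at 2.03. Within the shared day, replicate 3 minus fed replicate 1 was -1.03, -0.95, -0.77 and 1.70 for Dnaja1, Pdha1, Idh3g and Ube2j1. The cause of the turned signs was not tested. Of the list medians, 30 of 44 moved beyond the spread between arrays with the sample channel alone, 5 with loess and 1 without the filter. Sample signal over background, at most 10.1 and 3.50 on replicate 3 of 24 h, limits what dim probes can show.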

Other observations

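A few further groups held genes that rose without the low-signal arrays, and for each of those named here replicate 3 of 24 h lay within or below the fed arrays. Among 16 antioxidant enzymes 3 rose (median 0.30), 1 without fed replicate 3 and 0 without replicate 2 of 24 h. Glrx, a glutaredoxin, was at -0.02, 0.20 and -0.20 in fed liver and at 0.86, 1.08 and -0.40 at 24 h, a log2 change of 0.97 ± 0.16 (adjusted p = 0.0109). Txnrd1, thioredoxin reductase, rose by 0.84 ± 0.20 (adjusted p = 0.0307) and Gsr, glutathione reductase, by 0.70 ± 0.19 (adjusted p = 0.0434). Of 19 conjugating and aldehyde-oxidizing enzymes 4 rose, 1 without fed replicate 2 or 3 and 0 without replicate 2 of 24 h. All 4 were aldehyde dehydrogenases, with log2 changes of 0.99 for Aldh3a2, 0.96 for Aldh16a1, 0.75 for Aldh9a1 and 0.51 for Aldh6a1. The 2 that fell were glutathione transferases. Gstm6 was at 0.16 and 0.04 on fed replicates 1 and 2 and at -0.77, -0.60 and -1.06 at 24 h, low on all 24 h arrays, while Gstt3 fell by 0.57 ± 0.12 (adjusted p = 0.0206) with replicate 3 inside the fed range and lost its call without fed replicate 2 or 3 or replicate 2 of 24 h.

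Genes of secreted proteins and of export were called singly. Mttp, which loads lipid onto apolipoprotein B, was at 0.38, 0.34 and -0.15 in fed liver and at 1.25, 1.31 and -0.54 at 24 h, and it rose by 1.09 ± 0.20 (adjusted p = 0.0132), a call lost without replicate 2 of 24 h. F5, coagulation factor V, rose by 1.26 ± 0.19 (adjusted p = 0.00799) and Serpina3n, an acute-phase protease inhibitor, by 1.09 ± 0.25 (adjusted p = 0.0256), the 2 of 11 plasma-protein genes tested that passed. The call of Serpina3n was lost without any 1 array other than fed replicate 1 whereas F5 kept its call without each array in turn, and 3 genes of the list passed without fed replicate 1 and 0 with the day as a random block. Abcc3, an exporter of bile acids and glucuronides, rose by 1.30 ± 0.35 (adjusted p = 0.0430), a call that was lost without any 1 array other than replicate 1 of 24 h. Of 11 circadian clock genes 1 passed in limma, Clock, which rose by 0.69 ± 0.15 (adjusted p = 0.0222), beside 7.13% of all reported genes. In this list 0 passed without fed replicate 3 or either remaining 24 h array.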
